A study of Mus musculus with 3 samples.

Results

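Malat1, Neat1, Kcnq1ot1, Norad, Tug1, Pvt1 and Miat are 7 long noncoding RNAs, transcripts that are not translated into protein and act as RNA in the nucleus or the cytoplasm. They were chosen by name, as 7 of the 41743 gene symbols in the count tables. Norad is listed there under an older symbol, 2900097C17Rik, which RefSeq gives as a synonym of both Norad and Bscl2. Bscl2 has a row of its own (70 and 44 counts with ezrin, 83 with IgG), and the length behind the deposited values of 2900097C17Rik was 4915 bases against a Norad gene of 4917 bases, so the row was read as Norad.

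The RNA came from K7M2, a mouse osteosarcoma cell line. Its own ezrin had been removed by CRISPR/Cas9 (Ezrin -/-) and replaced by a stably transfected T567A ezrin cDNA, and all 3 libraries, the IgG control included, share this genotype and received no treatment. Ezrin links the plasma membrane to actin filaments, and the alanine in T567A takes the place of a threonine whose phosphorylation opens the protein. RNA was recovered by immunoprecipitation and sequenced (RIP-seq), with an ezrin antibody in 2 libraries (ezrin replicates 1 and 2) and normal mouse IgG in 1 library, the background of the method. The question was which RNAs come down with closed ezrin. Whether both ezrin libraries came from separate cultures, and whether the line is 1 clone, is not in the labels. If they are not separate cultures, the p-values below measure technical spread only.

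Malat1 is a nuclear RNA of splicing speckles and Neat1 is the scaffold of paraspeckles, nuclear bodies built from RNA and RNA-binding proteins. The 3′ ends of Malat1 and of the long Neat1 isoform are cut by RNase P and carry no poly(A) tail. Kcnq1ot1 is an unspliced antisense transcript that stays at chromatin and silences neighbouring imprinted genes in cis. Norad is mostly cytoplasmic and binds many copies of the Pumilio proteins, which repress messages. Tug1 is found in both compartments, Pvt1 lies beside the Myc gene, and Miat is a nuclear RNA best known from neurons.

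The 3 windows below show the starts of the RNAs with the lowest ratios, Malat1 and Kcnq1ot1, and of Tug1, which was near the other end of the range. Each runs 5′ to 3′ from 250 bases upstream to 50 bases inside the gene, on the minus strand, from RefSeq on GRCm38.p6. Capitals mark the first 50 transcribed bases. The windows lie at chr19:5802623-5802922, chr7:143296498-143296797 and chr11:3648765-3649064.
Malat1: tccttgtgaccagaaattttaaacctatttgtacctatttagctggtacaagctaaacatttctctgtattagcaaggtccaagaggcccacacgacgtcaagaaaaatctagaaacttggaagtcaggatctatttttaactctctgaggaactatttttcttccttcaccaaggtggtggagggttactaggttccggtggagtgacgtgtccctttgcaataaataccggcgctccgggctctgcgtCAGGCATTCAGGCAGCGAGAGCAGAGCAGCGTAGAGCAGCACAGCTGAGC
Kcnq1ot1: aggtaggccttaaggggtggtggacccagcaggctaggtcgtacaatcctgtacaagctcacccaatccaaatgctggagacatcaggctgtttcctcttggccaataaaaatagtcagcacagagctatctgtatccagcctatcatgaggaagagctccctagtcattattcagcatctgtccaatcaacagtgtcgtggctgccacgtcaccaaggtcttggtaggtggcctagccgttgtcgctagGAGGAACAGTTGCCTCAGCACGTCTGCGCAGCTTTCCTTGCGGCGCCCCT
Tug1: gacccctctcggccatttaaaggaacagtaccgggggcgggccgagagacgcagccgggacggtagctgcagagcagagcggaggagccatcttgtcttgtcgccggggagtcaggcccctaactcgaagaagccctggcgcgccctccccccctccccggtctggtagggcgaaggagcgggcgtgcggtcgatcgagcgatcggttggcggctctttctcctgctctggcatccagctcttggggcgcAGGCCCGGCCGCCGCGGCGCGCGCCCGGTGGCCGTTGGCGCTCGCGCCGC
RefSeq windows were found for 4 of the 7 genes, the fourth being Miat. The letters CCAAT, searched on both strands, occurred 3 times in the Kcnq1ot1 window and in none of the other 3. Of all 32851 windows of this length, 37.4% held CCAAT at least once. TATAAA, also searched on both strands, was in none of the 4 windows and in 13.6% of all windows. The Tug1 window held 37 CpG dinucleotides, more than 94.4% of all windows, against 10 for Malat1 and 9 for Kcnq1ot1. The counts measure whole transcripts and cannot tell which stretch of an RNA was recovered.

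The gene tables count each RNA over its annotated exons. Malat1 (chromosome 19, 5795690 to 5802672, GRCm38) was counted over 6983 bases, its whole gene. The same holds, within 2 bases, for Neat1 (chromosome 19, 5824708 to 5845480; 20771 bases) and for Norad (chromosome 2, 156388063 to 156392979), so the short and long isoforms of Neat1 are not separated. Kcnq1ot1 (chromosome 7, 143213111 to 143296547) was counted over 93092 bases, longer than its RefSeq gene of 83437 bases. Pvt1 (chromosome 15, 62037986 to 62260215) was counted over 6996 bases of exon in a gene that spans 222230. Tug1 (chromosome 11, 3639785 to 3648814) was counted over 9734 bases and Miat (chromosome 5, 112213228 to 112228948) over 9293.

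Total counts were 19676595 and 16196329 in ezrin replicates 1 and 2 and 10124580 in IgG. The IgG library differed from the ezrin libraries in make-up: remnants of ribosomal RNA (Gm26917 and Gm42418) took 16.5% of its counts against 0.122% and 0.198%, and mitochondrially encoded genes 0.358% against 0.0120% and 0.0163%. These contents move with the results below, and their part in them was not tested. With normalization on protein-coding genes alone the log2 fold of Malat1 was -5.00 and that of Norad -1.48, close to the values given below. That setting changes the scaling of libraries only and is no test of the part those contents play. Protein-coding genes took 97.5% and 98.1% of the counts in ezrin replicates 1 and 2 and 74.7% in IgG. RefSeq long noncoding RNAs, the members included, took 0.270% and 0.293% against 0.870%. Counts are shares of a library, so less of an RNA and more of the others cannot be told apart. Among 10 osteoblast markers, Col1a2, Sparc, Col1a1, Spp1 and Runx2 were abundant, whereas Sp7, Bglap, Bglap2 and Ibsp had at most 5 counts in any library. Markers of macrophages, endothelium, epithelium and B cells summed to at most 2.82 CPM per list in any library, with Ptprc, Adgre1 and Epcam at 0 in all. Ezr itself was at 349 and 350 CPM in the ezrin libraries and 155 CPM in IgG, where gene and transgene are counted together.

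Every member with enough counts to test was lower in the ezrin libraries than in IgG. Of the 7 RNAs, 6 passed the filter on low counts, and the quasi-likelihood test of edgeR, adjusted by Benjamini-Hochberg at 0.05, called 6 lower and none higher. Of all 12478 genes tested, 17.4% were lower and 19.0% higher, that is 2171 and 2377 genes. With the read totals behind the RPKM as library sizes this split was 1022 and 4223, on log2(RPKM + 1) 964 and 3734, and on log2(RPKM + 0.1) 843 and 3745. A difference of 4-fold or more on the lower side was called for 3 of the 6 members, Malat1, Kcnq1ot1 and Neat1, and for 3.6% of all tested genes. The median log2 fold of the 6 members was -1.80, beside -0.02 for all tested genes. For the 525 RefSeq long noncoding RNAs tested it was -0.86, and 29.3% of them were called lower. Tug1 (-0.94) and Pvt1 (-0.96) thus lay close to the median of that class. A single IgG library stands behind each of these values, and the test assumes that it varies like the ezrin libraries.

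**Figure D1:**
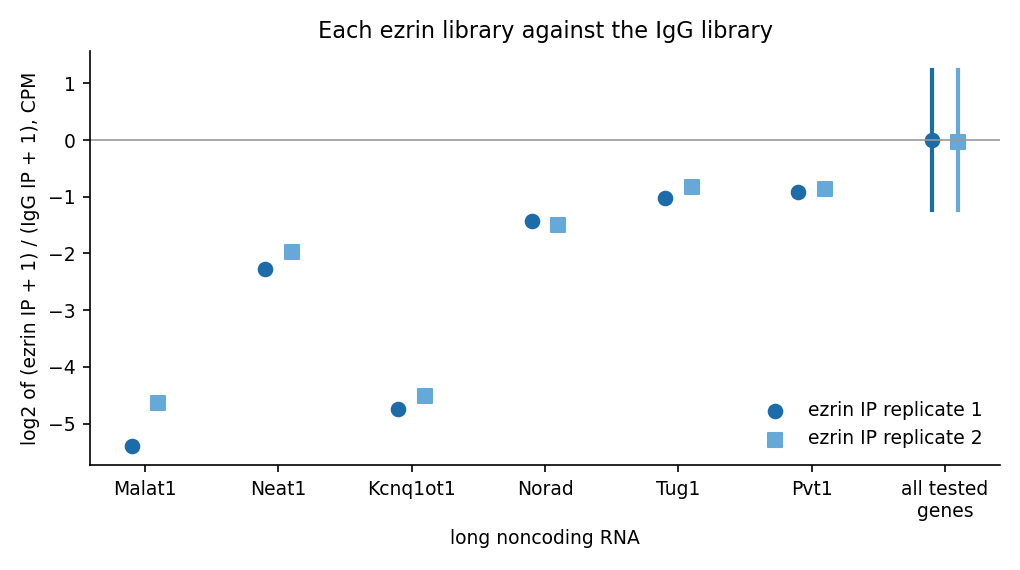
Ratio of each ezrin library to the IgG library, as log2 of CPM with 1 CPM added, for the 6 tested RNAs. At the right, points and bars give the median and the range from the 5th to the 95th percentile of 12478 tested genes. All 12 points of the members lie below 0, and Malat1 and Kcnq1ot1 lie lowest.

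Malat1 and Kcnq1ot1 stood lowest of the 6. Malat1 was counted 1679 times in ezrin replicate 1, 2386 times in ezrin replicate 2 and 34303 times in IgG. Scaled to library size by TMM these were 83.7, 142 and 3585 counts per 1000000 (CPM), so both ezrin libraries lay far below IgG. As a share of all counts Malat1 made up 0.00853% (exact 95% interval 0.00813 to 0.00895), 0.0147% (0.0141 to 0.0153) and 0.339% (0.335 to 0.342). It was the 7th most abundant gene of the IgG library and ranked 2751 and 1590 in the ezrin libraries. The mean of 113 ± 41.4 CPM (SD, n = 2) was 31.8-fold lower than IgG (log2 fold -4.99, SE 0.22, edgeR adjusted p = 2.14e-112). By this fold Malat1 ranked 67 from the lowest of 12478 tested genes. With 1 CPM added to both sides, which draws rare genes towards 0, 5 and 11 of them had a lower ratio than Malat1 in ezrin replicates 1 and 2.

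The ezrin libraries disagreed on Malat1 more than on most genes. It was 1.70 times higher in replicate 2 than in replicate 1, and 98.0% of tested genes differed less between them. Against IgG it was 42.8-fold lower in replicate 1 and 25.2-fold lower in replicate 2. edgeR used a spread pooled over genes here. DESeq2, which estimated a spread for Malat1 itself, gave a log2 fold of -4.97 with an SE of 0.66 (adjusted p = 7.30e-12).

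Kcnq1ot1 was lower by almost the same factor as Malat1, from a far smaller number of reads. Its counts were 76 (95% Poisson interval 59.9 to 95.1), 78 (61.7 to 97.3) and 1223 (1155 to 1294) in ezrin replicates 1 and 2 and IgG. On the CPM scale it stood at 3.79 and 4.65 against 128, both below the value of the single IgG library. The fold was 30.4 on the lower side (log2 fold -4.92, SE 0.26, edgeR adjusted p = 6.11e-74). Kcnq1, the potassium channel gene that Kcnq1ot1 lies inside in antisense, had 0, 1 and 0 counts. If counting did not use strand, which the sources used here leave unstated, reads of the pair cannot be told apart.

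Neat1 fell less than the other nuclear members. It had 1839 and 1893 counts in the ezrin libraries and 4261 in IgG, which is 91.6, 113 and 445 CPM. Both ezrin values lay well below IgG, and replicate 2 was 1.23 times replicate 1. The fold on the lower side was 4.36 (log2 fold -2.12, SE 0.22, edgeR adjusted p = 3.24e-19). In counts, Malat1 was 8.05 times Neat1 in the IgG library but only 0.913 and 1.26 times Neat1 in the ezrin libraries. That ratio is taken within a library and does not depend on how libraries are scaled.

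Norad, the cytoplasmic member, was also lower in the ezrin libraries. It had 4540 and 3608 counts there and 5845 in IgG, or 226 and 215 against 611 CPM. The ezrin libraries agreed closely on it, at 221 ± 7.88 CPM (SD, n = 2), and lay below IgG. It was 2.77-fold lower (log2 fold -1.47, SE 0.22, edgeR adjusted p = 5.18e-10). It nevertheless became the most abundant RefSeq long noncoding RNA of both ezrin libraries, where it ranked 3 in IgG. Its share of all long noncoding RNA counts was 8.54% and 7.62% in the ezrin libraries and 6.64% in IgG. That of Malat1 was 3.16% and 5.04% against 39.0%. Long noncoding RNAs as a whole took less of the ezrin libraries, 0.270% and 0.293% of counts against 0.870% in IgG.

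Set against Norad within each library, Malat1 and Kcnq1ot1 were clearly lower in the ezrin libraries, Neat1 slightly lower, and Tug1 and Pvt1 higher. Malat1 gave 0.370 and 0.661 counts per Norad count in ezrin replicates 1 and 2 and 5.87 in IgG, 15.9 and 8.87 times less. For Kcnq1ot1 the same ratio was 0.0167 and 0.0216 against 0.209, 12.5 and 9.68 times less. Neat1 gave 0.405 and 0.525 against 0.729, 1.80 and 1.39 times less. Tug1 gave 0.204 and 0.248 against 0.156, and Pvt1 0.0388 and 0.0421 against 0.0284. The mean log2 count of the 3 nuclear members minus that of Norad was -2.88 and -2.35 in the ezrin libraries and -0.05 in IgG. The difference from IgG was thus -2.83 and -2.30, with a mean of -2.56 ± 0.37 (SD, n = 2). An exact two-sided permutation test over 3 libraries cannot go below p = 0.333, the value it gave, and no model of this contrast was fitted, so it is given as a description. It also rests mainly on Malat1 and Kcnq1ot1, since Neat1 minus Norad was -0.66 ± 0.26 (SD, n = 2) on the log2 scale.

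**Figure D2:**
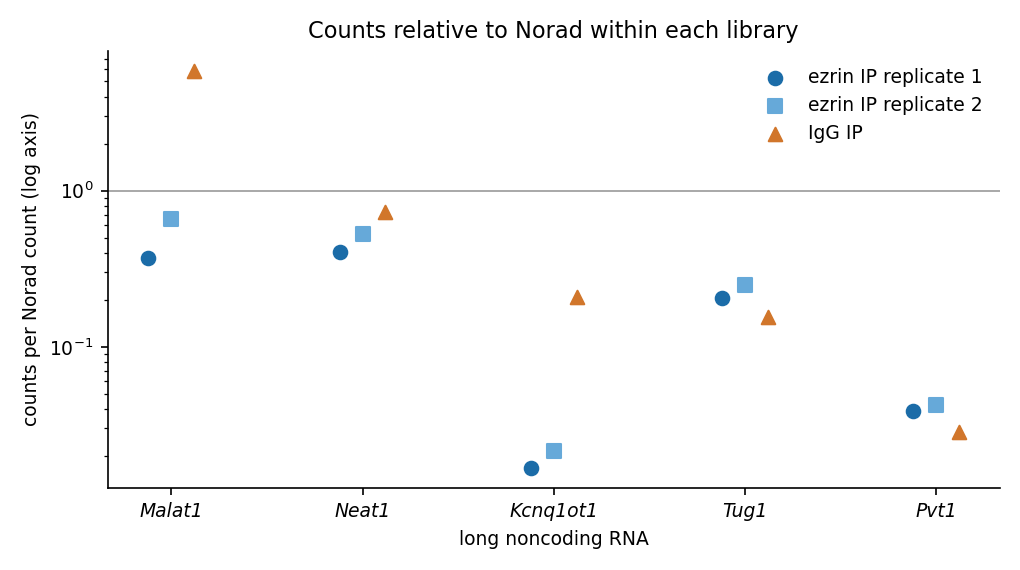
Counts of each RNA per count of Norad in the same library, on a log axis, for ezrin IP replicates 1 and 2 and the IgG IP library. Malat1 drops from 5.87 in IgG to 0.370 and 0.661, whereas Tug1 and Pvt1 lie higher in both ezrin libraries than in IgG.

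Tug1, which has been linked to chromatin silencing, was lower by a small factor. Its 927 and 895 counts with ezrin and 912 with IgG were 46.2, 53.4 and 95.3 CPM. It was 1.92-fold lower (log2 fold -0.94, SE 0.24, edgeR adjusted p = 5.39e-04). Pvt1, a neighbour of Myc often gained with it in tumours, behaved alike, with 176, 152 and 166 counts or 8.77, 9.06 and 17.3 CPM. The fold on the lower side was 1.95 (log2 fold -0.96, SE 0.29, edgeR adjusted p = 0.00425). The ezrin values of both RNAs lay below IgG, but the calls depended on the scaling. With the read totals behind the RPKM as library sizes, which raised the median of all genes by 0.39, Tug1 was at -0.55 (edgeR adjusted p = 0.0613) and Pvt1 at -0.57 (edgeR adjusted p = 0.107). On log2(RPKM + 1) neither passed in limma (adjusted p = 0.133 and 0.129), and DESeq2 did not call Pvt1 (adjusted p = 0.110).

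Miat was not detectable at this depth in the ezrin libraries. It had 0 counts in both, which allows up to 0.152 and 0.185 counts per 1000000 (3 counts of each total), and 1 count in IgG (95% Poisson interval 0.0253 to 5.57). No fold is given, since all libraries were at or under that floor.

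Per length, the order of the RNAs changed between the antibodies. RPKM, the deposited count per kilobase of gene and per 1000000 reads, allows levels of different genes to be compared. In IgG the order was Malat1 (333 RPKM), Norad (80.7), Neat1 (13.9), Tug1 (6.36), Pvt1 (1.61) and Kcnq1ot1 (0.891). In the ezrin libraries Norad came first, at 38.6 and 37.7 RPKM, and Malat1 second, at 10.1 and 17.5 RPKM. Norad thus exceeded Malat1 3.84 and 2.15 times per length, where in IgG Malat1 exceeded Norad 4.13 times. Next came Tug1, at 4.35 ± 0.523 RPKM (SD, n = 2), and Neat1, at 4.19 ± 0.691 RPKM. Tug1 was above Neat1 in both libraries, 3.98 against 3.70 and 4.72 against 4.68 RPKM, but by less than that spread. Pvt1 followed at 1.08 ± 0.0451 RPKM and Kcnq1ot1 was last at 0.0386 ± 0.00628 RPKM. The other neighbours in this order differed by more than the spread of the ezrin libraries.

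**Figure D3:**
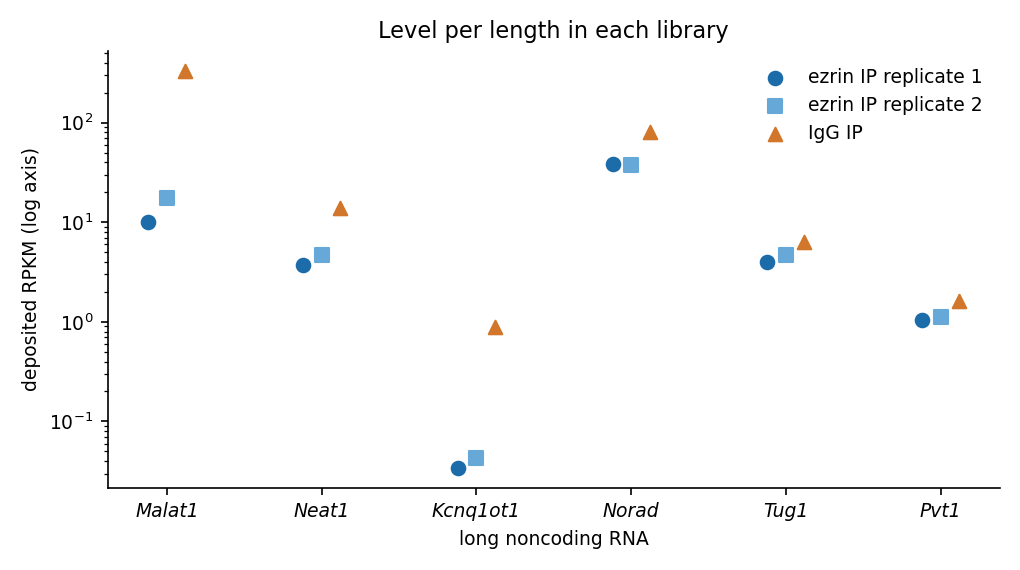
Deposited RPKM of 6 RNAs in each library, on a log axis. Miat is left out, being listed at 0 in both ezrin libraries. Norad is highest in both ezrin libraries and Malat1 in IgG.

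Other long noncoding RNAs of the nucleus were mostly lower too, though many were rare. Of 525 RefSeq long noncoding RNA genes tested, 29.3% were called lower, against 17.4% of all genes. Of these 525, 10 had a log2 fold as low as that of Malat1 or lower, Malat1 included. In a list of 21 other nuclear long noncoding RNAs, 14 could be tested, of which 9 were lower, none higher and 5 not called, with a median log2 fold of -1.33. With the read totals behind the RPKM as library sizes 6 were lower (median -0.94), on log2(RPKM + 0.1) 5 (-0.76), and on log2(RPKM + 1) 6, with 1 higher (-0.28), Hotair, named after its value was seen. Xist, which coats the inactive X chromosome, had 437 and 580 counts against 6969 (log2 fold -4.69), and the p53-regulated Lncpint 47 and 28 against 355 (-4.19). Fendrr, a developmental chromatin regulator, was at -0.83 with 245, 210 and 211 counts, and lost its call with those read totals, on both RPKM scales and with DESeq2. Xist overlaps its antisense partner Tsix, and reads of the pair cannot be told apart if strand was not used. With DESeq2, 4 of the 14 were called lower (Lncpint, Xist and, named after their values were seen, Dleu2 and Tsix). In a separate edgeR fit of genes averaging at least 10 CPM, only 3 were tested. These were Xist, Lncpint and Fendrr, and all 3 were called lower.

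Long noncoding RNAs of the cytoplasm and hosts of small RNAs were called in both directions. Of 13 listed, 10 were tested, with 2 higher, 3 lower and 5 not called. Over all genes 19.0% were higher and 17.4% lower, so among 10 genes these counts are near the share of all genes. Among the 525 RefSeq long noncoding RNAs tested, 10 were higher and 154 lower, with a median of -0.86. Higher calls were thus more frequent in this list than in that class. The split became 5 higher and 1 lower with the read totals behind the RPKM, and 4 and 1 on both RPKM scales. It was 1 and 4 after cyclic loess, and 1 and 1 with DESeq2. Over all genes, higher and lower calls were 4223 and 1022 of 12440 with those read totals. They were 3734 and 964 on log2(RPKM + 1) and 3745 and 843 on log2(RPKM + 0.1), of 12478 genes. After cyclic loess they were 2272 and 2226, and with DESeq2 1747 and 1101. The median was -0.07, which turned to 0.06 with library size as the only scaling, and to between 0.29 and 0.37 with the read totals behind the RPKM, on log2 RPKM, without a filter or at a mean of at least 10 CPM. Zfas1 was higher (log2 fold 0.74; 1872 and 1938 counts against 598) and so was Snhg5 (0.68), which lost its call after cyclic loess, with DESeq2 and in genes averaging 10 CPM or more. Mir17hg, host of a growth-promoting microRNA cluster, was at -3.43 from 2, 10 and 35 counts, and Mir22hg at -0.82. Mir22hg kept its lower call in 3 of the 10 alternatives only, those with DESeq2 size factors, with TMM on protein-coding genes and with cyclic loess. The abundant Snhg1 (-0.41) and Gas5 (0.28) were not called, though Snhg1 was called lower after cyclic loess and in genes averaging 10 CPM or more. Gas5 was called higher with the read totals behind the RPKM.

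Messages of proteins that work with these RNAs were more often called higher than lower, and many were not called. Over all tested genes 19.0% were higher. Among 15 messages of paraspeckle proteins, which assemble on Neat1, 9 were higher, none lower and 6 not called, with a median log2 fold of 0.92 beside -0.02 for all genes. With the read totals behind the RPKM 13 of the 15 were higher, where 4223 of all 12440 genes were. Taf15 (2.17), Ewsr1 (1.33) and Hnrnpk (1.29), which bind RNA, were among those higher. Among 17 messages of nuclear speckle proteins, where Malat1 resides, 8 were higher, none lower and 9 not called, with a median of 0.56, and 12 were higher with those read totals. The splicing factors Srsf5 (1.73), Hnrnpc (1.25) and U2af2 (0.91) were higher, and Srsf1 stood at -0.08, not called. After cyclic loess the medians of both lists were 0.51 and 0.33, U2af2 lost its call and Srsf1 was called lower.

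Of 8 messages of Norad partners, 6 were higher, none lower and 2 not called, with a median of 0.81. Pum2, which encodes a Pumilio protein, stood at 168 ± 27.7 CPM (SD, n = 2) against 231 (log2 fold -0.46) and was not called. It was called lower after cyclic loess and in genes averaging 10 CPM or more. Cdc5l (1.41), Prpf19 (1.17), Khdrbs1 (1.07), Top1 (0.85), Rbmx (0.77) and Alyref (0.55), which act in splicing, export and DNA topology, were higher. Alyref lost its call with TMM on protein-coding genes, after cyclic loess and in genes averaging 10 CPM or more, and Rbmx with DESeq2 and in genes averaging 10 CPM or more. For Malat1 end processing, 11 of 12 messages were tested, with 3 higher, 1 lower and 7 not called, beside 19.0% higher and 17.4% lower over all genes, and a median of 0.47. With the read totals behind the RPKM 7 were higher and none lower, on log2(RPKM + 1) 6 and none, and on log2(RPKM + 0.1) 5 and none. Higher calls over all genes rose in these settings too, to 4223 of 12440, 3734 of 12478 and 3745 of 12478. The RNase P subunits Pop1 (1.58) and Rpp30 (0.81) and the tRNA 3′ endonuclease Elac2 (0.75) were higher, and Pop5 (-0.66), another subunit, was lower. The call of Pop5 held in 3 of 10 alternatives and was lost with no filter, with library size or read totals alone, after cyclic loess, with DESeq2 and on both RPKM scales. Mettl16, which binds the Malat1 end, stood at 0.40 and was not called, except as higher with the read totals behind the RPKM.

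**Figure D4:**
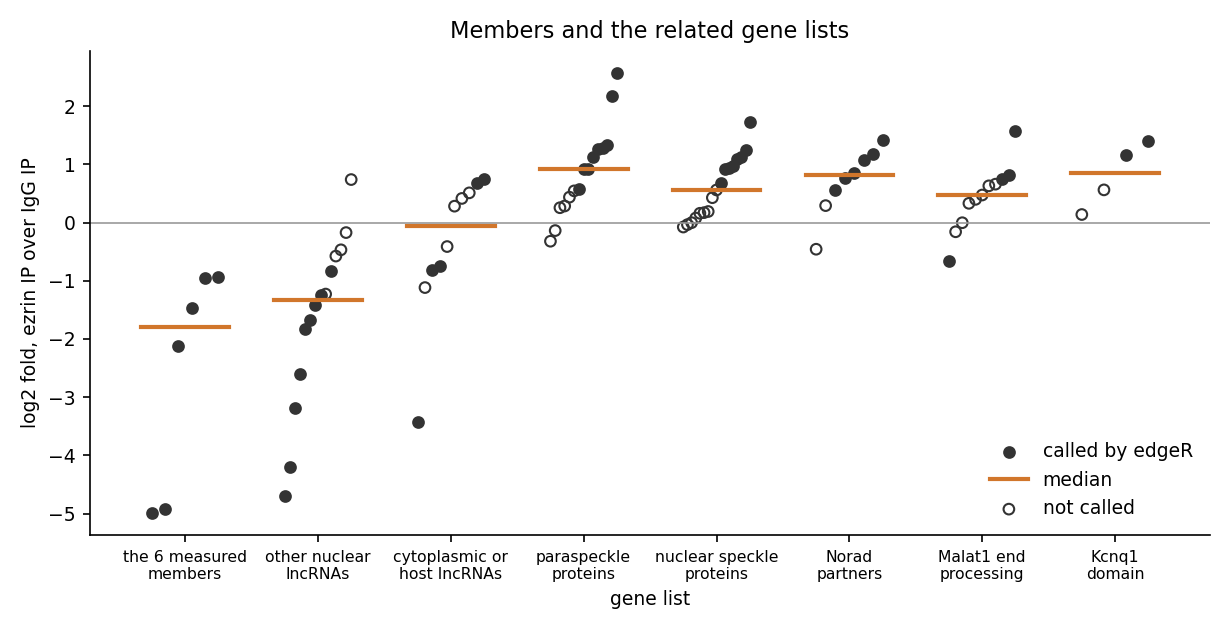
Log2 fold of ezrin IP over IgG IP from edgeR for the 6 measured RNAs and 7 related gene lists; filled points were called, open points were not, and bars are medians. The members lie between -4.99 and -0.94, and the lists of messages have medians from 0.47 to 0.92. The median of the cytoplasmic or host list, -0.07, changes sign with library size as the only scaling.

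Among the nearest protein-coding genes on each side of the members, 8 could be tested, of which 1 was higher and none lower. Over all genes 19.0% were higher and 17.4% lower, so among 8 genes these counts are near the background. Frmd8, 5493 bases from Neat1, was at 104 and 80.2 CPM in ezrin replicates 1 and 2 and 87.5 CPM in IgG, and was not called. Morc2a, which starts 374 bases from Tug1, was at 148 and 169 against 113 CPM and not called, and Smtn on the other side was higher (log2 fold 1.17). Myc, 47624 bases from Pvt1, was at 288 and 211 against 224 CPM (log2 fold 0.16, not called). Cnbd2 (-0.06) and Epb41l1 (-0.53) beside Norad, and Cryba4 (1.93) beside Miat, from 15, 15 and 2 counts, were not called. Gm14170, which overlaps Norad, had no count in any library.

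In the imprinted domain of Kcnq1ot1, several of the 10 listed genes were at or near 0, and others were well counted. Cdkn1c, a growth inhibitor, and Phlda2 had no count in any library, Slc22a18 had 1, 1 and 0, Ascl2 0, 0 and 2 and Trpm5 5, 2 and 0. Of 10 listed genes, 4 were tested, with 2 higher and none lower, beside 19.0% higher over all genes. Nap1l4 (1.16) and Tssc4 (1.40) were higher, and Cd81 (0.56) and Osbpl5 (0.14) were not called. Cd81 was called higher in 5 alternatives, with no filter, with library size or read totals alone and on both RPKM scales.

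By closeness of the pair of log2 ratios, among 8604 genes averaging 10 CPM or more, the genes most like Malat1 were the mitochondrially encoded mt-Cytb (distance 0.150), mt-Nd1 (0.339) and mt-Nd4 (0.359). Those most like Kcnq1ot1 were mt-Co2 (0.162), mt-Nd5 (0.217) and Xist (0.294). Neat1 lay nearest to Onecut2, the histone gene H4f16 and Socs4 (0.0557 to 0.101), and Norad to Snhg17, Tead1 and Prkce (0.0369 to 0.0648). All of these were called lower by edgeR, which largely follows from choosing them by ratios close to those of members called lower. Since each ratio shares the IgG library, the distances are a description only.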

How the data were processed

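RIP-seq libraries (2 ezrin, 1 IgG) were read from 6 deposited tables. Raw counts and RPKM for each gene symbol were deposited by the authors; per the labels' protocols ribosomal RNA was depleted and paired 150-base reads were sequenced, although the labels also name polyA RNA. Per the submitters' processing notes the build was GRCm38; the sources used here do not give the aligner, counter, annotation or use of strand. Counted lengths and read totals were recovered from count over RPKM, with the total set on small RNA genes of known length. The main test was edgeR 4.0.16 (R 4.3.3): TMM, filterByExpr by group, quasi-likelihood test, Benjamini-Hochberg over 12478 genes at 0.05. There was 1 residual degree of freedom, and the prior degrees of freedom were infinite. SE is the log2 fold over the root of F. CPM use TMM factors of 1.02, 1.04 and 0.946. Alternatives used DESeq2 1.42.0 and limma 3.58.1, other filters and scalings, and each ezrin library left out. The script was tested on simulated data. Intervals are exact (95%) and cover counting error only. RefSeq symbols matched 30374 of 41743 names, 158 as synonyms. Named genes were all 7 members, all measured Norad partners and Kcnq1 domain genes, the 3 most abundant and the 2 highest and 2 lowest called genes of each other list, flanking coding genes, Ezr, and the 3 genes nearest in ratio. Members and lists were chosen with earlier results of these data known. A few genes that this rule names are not reported here.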

Additional observations from a re-analysis of the deposited data

How the results depend on the processing

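Malat1, Neat1, Kcnq1ot1 and Norad kept their direction and their call under all 10 alternatives with a test, with log2 folds of -5.44 to -4.55, -2.39 to -1.53, -5.04 to -0.86 and -1.85 to -1.06. The smallest Kcnq1ot1 value came from log2(RPKM + 1), where the added 1 exceeds its level. Tug1 lost its call with the read totals behind the RPKM as library sizes (-0.55), on log2(RPKM + 1) (-0.46) and on log2(RPKM + 0.1) (-0.54). Pvt1 lost it in the same settings (-0.57, -0.32 and -0.53) and with DESeq2 (-0.95). With 1 ezrin library left out, as plain ratios with 1 CPM added and no test, Kcnq1ot1 was at -4.75 to -4.51 and Pvt1 at -0.91 to -0.87. Nuclear members minus Norad is taken within a library, so other filters and scalings in edgeR leave it at -2.56 by construction. Where it was computed anew it stood at -1.25 on log2(RPKM + 1) and -1.99 on log2(RPKM + 0.1). It was -2.39 after cyclic loess and -2.54 with DESeq2. With 1 ezrin library left out it is the difference of the other, -2.30 without replicate 1 and -2.83 without replicate 2.

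Over all genes, 2171 lower and 2377 higher calls became 1022 and 4223 with those read totals, 964 and 3734 on log2(RPKM + 1), and 843 and 3745 on log2(RPKM + 0.1), settings that raised the median of all genes by 0.39, 0.24 and 0.36. DESeq2 called 1101 lower. The listed genes pool lists that went lower with lists that went higher. Of these genes, 13 lower calls became 7, 7 and 6 in those settings and 5 with DESeq2. Their 30 higher calls became 47 with the read totals. At a mean of at least 10 CPM 7 lower calls were left, but only 3 of the 14 other nuclear long noncoding RNAs were still tested. Over all genes that filter gave 1864 lower calls among 8598 genes. The cause of these changes was not tested. No paired analysis was possible, because there was 1 IgG library and the sample titles do not say which libraries form a pair. With 1 IgG library, its own spread is unknown, and Miat and the rarer long noncoding RNAs are limited by depth.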
